A study of Mus musculus with 10 samples.

Results

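The genes described here are 36 mouse genes of endoplasmic reticulum (ER) protein folding and of the unfolded protein response, a fixed list of sensors, transcription factors, chaperones, degradation factors and secretory genes. All 36 of 36 had a probe set of their own among the 19938 genes measured, and each is given by its brightest probe set. The tumours were 5 anaplastic thyroid carcinomas (ATC) of genotype TPOCreER; BrafV600E; p53 -/- and 5 papillary thyroid carcinomas (PTC) of genotype TPOCreER; BrafV600E, all of mixed C57BL/6;129SvJae strain. Both groups therefore carry the inducible, thyroid-directed Cre of the TPOCreER transgene and the mutant Braf allele, and both are models of a lesion begun in thyroid cells by those alleles. Tumour type and p53 genotype changed together and cannot be told apart. Ages were not used here, the genotype was not checked from the arrays, and nothing states that each tumour came from its own animal, so p-values measure the spread between these samples. Total RNA of each tumour was measured on 1 Affymetrix whole-transcript array, and all values are log2 probe set intensities. In RNA from whole tumours, fewer cells of a type and less RNA per cell cannot be told apart.

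The ER folds secreted and membrane proteins, and cells that secrete much protein, such as the thyroglobulin-making thyrocyte, depend on its chaperones. When unfolded protein builds up, sensors in the ER membrane act on separate branches. IRE1 cuts the Xbp1 mRNA so that it encodes an active transcription factor, ATF6 is cleaved into one, and PERK slows translation while it raises production of ATF4. Part of this control acts on splicing, cleavage and translation, which a probe set level does not show. The spliced and unspliced forms of Xbp1 were not separated by these values.

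The comparison of ATC with PTC asked which of these genes differ between the tumour types. Of the 36 genes, 1 was higher in ATC (Ssr3) and 3 were lower (Xbp1, Ern1 and Calr) after Benjamini-Hochberg adjustment over all genes (limma, adjusted p under 0.05), and 32 did not pass. That is 11.1% of the list, where 21.2% of all 19938 genes were called, 11.5% as higher and 9.72% as lower. The groups did not overlap for the same 4 genes, with ATC above in 1 and below in 3, where groups did not overlap for 16.9% of all genes (9.13% with ATC above and 7.74% below). The difference was negative for 25 of the 36 and positive for 11, where it was negative for 10728 of all 19938 genes. The median was -0.14 in the list, against -0.02 over all genes. At an unadjusted p under 0.05 stood 13 of the 36, 4 higher and 9 lower, where 32.7% of all genes did. Differences of at least 0.5 in size were found in 1 of the 36 (2.78%, Xbp1) and in 14% of all genes, whereas the median size was 0.21 in the list and 0.14 over all genes. Most of the list therefore differed by less than 0.5 in size, below PTC more often than above it.

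**Figure D1:**
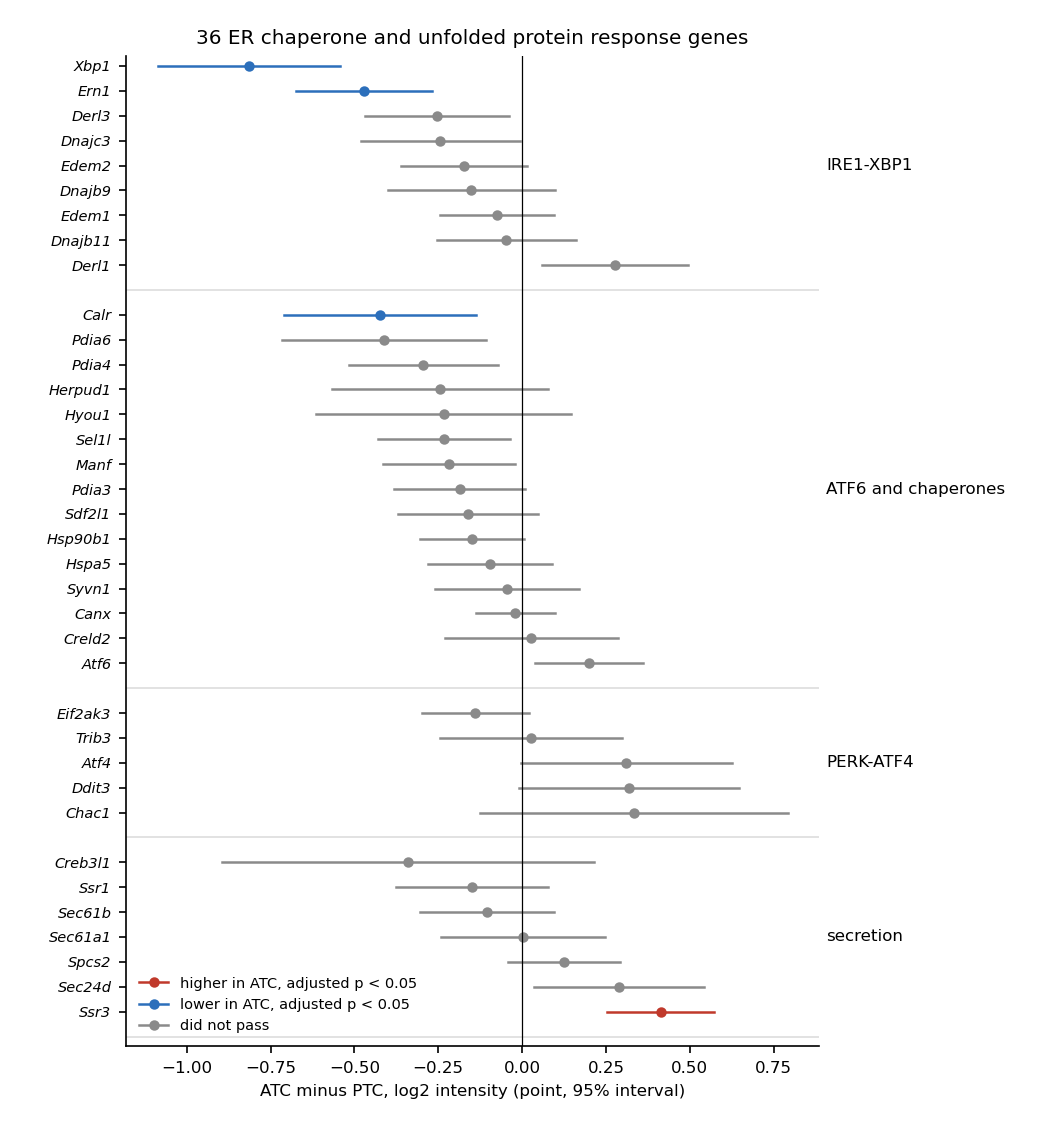
Difference of each of the 36 genes, ATC minus PTC in log2 intensity on the x axis, as a point with its 95% interval and ordered within each branch. Blue marks the 3 genes that were lower in ATC, red the 1 that was higher and grey the 32 that did not pass, and the interval of Xbp1 lies farthest from 0.

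In the IRE1 and XBP1 branch, the sensor and its transcription factor were both lower in ATC, and the other 7 genes did not pass. That is 22.2% of the branch, close to the 21.2% of all genes that were called. The branch holds 9 genes, of which 8 had a negative difference, with a median of -0.17. Xbp1, the transcription factor that drives folding and degradation genes after its mRNA is cut by IRE1, had 9.11, 9.43, 9.33, 9.49 and 9.75 in ATC tumours 1 to 5, against 10.09, 10.40, 10.004, 10.26 and 10.42 in PTC tumours 1 to 5 (probe set 10374035). Every ATC value lay below every PTC value, with ATC tumour 5 nearest to the PTC range. The means were 9.42 ± 0.23 in ATC and 10.24 ± 0.19 in PTC (SD, n = 5 each), a difference of -0.81 (SE 0.12, 95% interval -1.09 to -0.54, 1.76-fold lower, adjusted p = 0.00109).

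Ern1, which encodes IRE1 itself, had 8.37, 8.45, 8.13, 8.42 and 8.35 in the ATC tumours, against 8.85, 8.71, 8.61, 9.03 and 8.87 in the PTC tumours (probe set 10392183). The groups did not overlap, and ATC tumour 3 was the lowest of all. Its difference was -0.47 (SE 0.09, 95% interval -0.67 to -0.27, 1.39-fold lower, adjusted p = 0.00438). Without single tumours the difference stayed between -0.90 and -0.74 for Xbp1 and between -0.52 and -0.42 for Ern1, and each stayed past the threshold.

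The genes that XBP1 is known to control had smaller differences, and none of these 7 passed. Derl3 and Derl1 are derlins, which help to move misfolded proteins out of the ER, and their estimates had opposite signs: Derl3 -0.25 (adjusted p = 0.0906) and Derl1 0.28 (adjusted p = 0.0719). Derl3 ran from 7.05 to 7.29 in ATC and from 7.25 to 7.75 in PTC, and Derl1 from 9.27 to 9.79 in ATC and from 9.12 to 9.42 in PTC, so both overlapped. Without ATC tumour 4, the lowest of its group for Derl1, that gene passed at 0.36 (adjusted p = 0.0127), but in no other fit without a single tumour. Dnajc3, a co-chaperone also called p58IPK, had a difference of -0.24 (adjusted p = 0.14), which passed without ATC tumour 5 (-0.32, adjusted p = 0.0461). Edem2 and Edem1, lectin-like factors that mark glycoproteins for degradation, had -0.17 and -0.07. The BiP co-chaperones Dnajb9 and Dnajb11 had -0.15 and -0.05. Dnajb9 ran from 9.46 to 10.02 in ATC and from 9.74 to 10.03 in PTC, with ATC tumours 1 and 2 inside the PTC range and tumours 3, 4 and 5 below it.

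**Figure D2:**
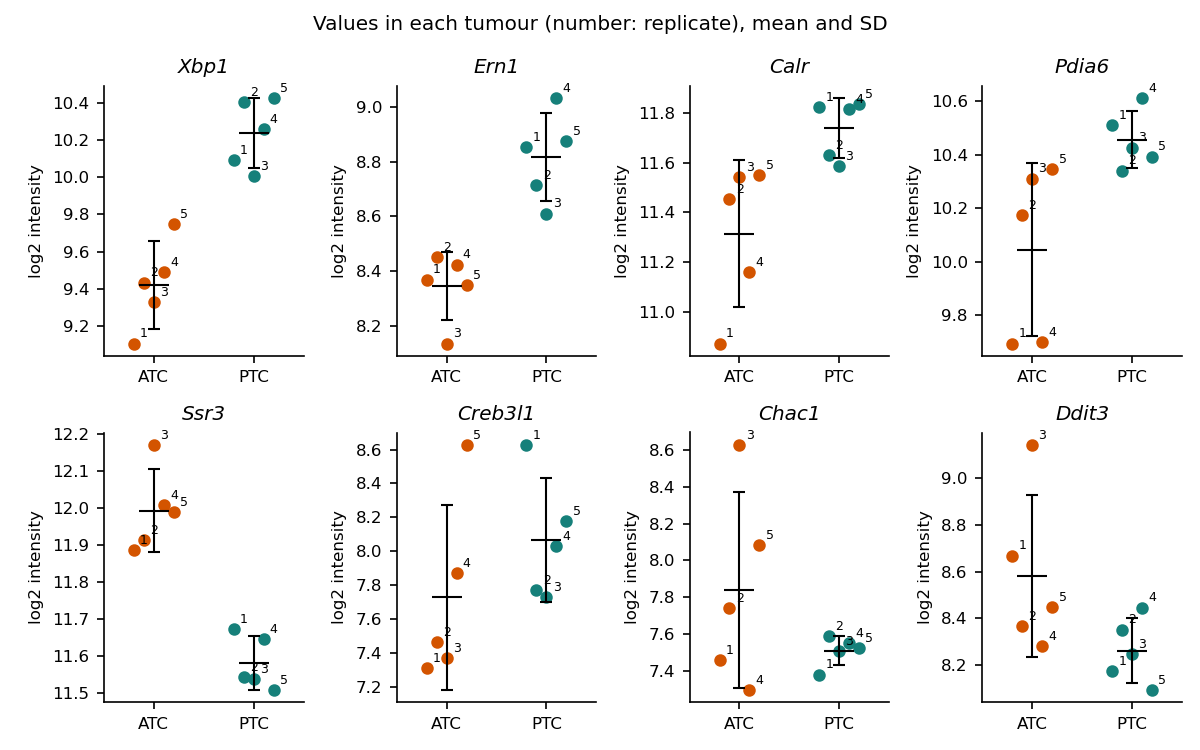
Log2 intensity (y axis) of 8 genes in each ATC tumour (left in each panel) and each PTC tumour (right), numbered by replicate, with the mean and SD as black marks. The groups are separate for Xbp1, Ern1, Calr and Ssr3 and overlap for Pdia6, Creb3l1, Chac1 and Ddit3, where ATC tumours 3 and 5 stand out in different panels.

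Some chaperone and degradation genes carry a known promoter element, and its sequences are shown before their values. ATF6 and XBP1 act through the ER stress response element (ERSE), CCAAT and CCACG separated by 9 bases of any kind. RefSeq promoter windows of mouse assembly GRCm38.p6, from 250 bases before to 50 bases after a transcript start of a gene, were searched on both strands. Of the plus-strand windows 60.5%, and of the minus-strand windows 61.0%, lay at the outermost annotated start of their gene, and the others at a start within it. Such a window was found for 30 of the 36 genes, at the outermost start for 26, and 9 of the 30 (30.0%) held an ERSE, where 39 of all 32851 windows (0.119%) did. The matches, all from windows at the outermost start, are printed here on the gene's own strand, with the element in capitals and 10 bases on either side. An element that opens with CGTGG runs in the opposite sense.
Hspa5 (chr2:34772015-34772053, plus strand): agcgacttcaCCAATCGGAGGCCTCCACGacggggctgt
Pdia6 (chr12:17266481-17266519, plus strand): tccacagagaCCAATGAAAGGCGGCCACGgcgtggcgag
Calr (chr8:84847065-84847103, minus strand): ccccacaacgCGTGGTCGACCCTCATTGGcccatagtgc
Canx (chr11:50325790-50325828, minus strand): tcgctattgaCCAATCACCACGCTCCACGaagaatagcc
Creld2 (chr15:88819510-88819548, plus strand): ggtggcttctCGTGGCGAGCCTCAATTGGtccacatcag
Syvn1 (chr19:6046522-6046560, plus strand): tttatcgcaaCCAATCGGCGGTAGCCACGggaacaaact
Dnajc3 (chr14:118937817-118937855, plus strand): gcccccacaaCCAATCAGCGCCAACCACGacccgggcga
Derl3 (chr10:75893232-75893270, plus strand): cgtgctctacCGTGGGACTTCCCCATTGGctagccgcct
Hsp90b1 (chr10:86705523-86705666, minus strand, 2 elements): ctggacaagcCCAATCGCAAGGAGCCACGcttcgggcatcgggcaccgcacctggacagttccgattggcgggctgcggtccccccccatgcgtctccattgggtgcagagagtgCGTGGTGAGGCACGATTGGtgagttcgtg

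Other elements were rarer in the list. ERSE-II, ATTGG and CCACG separated by 1 base, was in the windows of Herpud1 and Dnajb11 (0.0365% of all windows), and in Dnajb11 it lay after the start. The Herpud1 match is shown with the element in capitals.
Herpud1 (chr8:94386367-94386397, plus strand): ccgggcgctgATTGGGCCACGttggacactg
The XBP1 element TGACGTGG was in the window of Sec24d (0.676% of all windows). The amino acid response element TTGCATCA, bound by ATF4, was in those of Chac1 and Herpud1 (0.895% of all windows). A match describes the letters of the window and is not evidence of binding in these tumours. Of the 9 genes with an ERSE in the window, 0 were higher and 1 was lower in ATC, and 8 of the 9 differences were negative, with a median of -0.15. Of the 21 with a window and no ERSE, 1 was higher and 2 were lower, and 14 differences were negative, with a median of -0.14. Of all genes, 11.5% were called higher and 9.72% lower. The difference between these 2 medians was not tested.

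Among the 15 genes of the ATF6 and chaperone group, 1 was lower in ATC (Calr) and 14 did not pass. That is 6.67% of the group, where 21.2% of all genes were called. The difference was negative for 13 of the 15, with a median of -0.19, and no gene of the group differed by 0.5 or more in size. Calr, the calcium-binding lectin chaperone calreticulin, had 10.87, 11.45, 11.54, 11.16 and 11.55 in the ATC tumours, against 11.82, 11.63, 11.59, 11.82 and 11.84 in the PTC tumours (probe set 10580219). The groups did not overlap, but ATC tumours 3 and 5 lay close under the lowest PTC value, and ATC tumours 1 and 4 were the farthest below. The difference was -0.42 (SE 0.13, 95% interval -0.71 to -0.14, 1.34-fold lower, adjusted p = 0.0389). The call for Calr ended in 6 of the 10 fits that each left out 1 tumour. It was -0.31 (adjusted p = 0.0589) without ATC tumour 1 and -0.39 (adjusted p = 0.0796) without ATC tumour 4. It was -0.40 (adjusted p = 0.0853), -0.45 (adjusted p = 0.0530), -0.40 (adjusted p = 0.0856) and -0.40 (adjusted p = 0.0810) without PTC tumours 1, 2, 4 and 5 in turn.

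The protein disulfide isomerases, which form and rearrange disulfide bonds, had negative estimates that did not pass. Pdia6 had 9.69, 10.17, 10.31, 9.70 and 10.35 in the ATC tumours, against 10.51, 10.34, 10.43, 10.61 and 10.39 in the PTC tumours. ATC tumours 1 and 4 were again far below, and only ATC tumour 5 reached above the lowest PTC value. Its difference was -0.41 (SE 0.14, 95% interval -0.72 to -0.11, adjusted p = 0.0557), and it passed without ATC tumour 3 or ATC tumour 5 (-0.49 to -0.48, adjusted p = 0.0304 to 0.0365). Pdia4 ran from 10.01 to 10.53 in ATC and from 10.46 to 10.70 in PTC, with a difference of -0.29 (adjusted p = 0.0621). It passed without ATC tumour 2 or ATC tumour 5 (-0.35 to -0.34, adjusted p = 0.0299 to 0.0420). A dimmer probe set of Pdia4 (mean 6.84) had -0.07 (adjusted p = 0.546 over all probe sets). Pdia3, the partner of the calnexin cycle, ran from 11.61 to 11.80 in ATC and from 11.61 to 12.06 in PTC, with a difference of -0.19 (adjusted p = 0.174). It passed without PTC tumour 5 (-0.26, adjusted p = 0.0266), the one PTC tumour that lay at the bottom of the ATC range.

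Hspa5, Hsp90b1, Canx and Hyou1 did not pass. Hspa5, which encodes BiP, the main ER HSP70 and the partner of all the sensors, had 11.99, 12.05, 12.27, 11.95 and 12.30 in the ATC tumours, against 12.19, 12.21, 12.10, 12.30 and 12.24 in the PTC tumours. ATC tumours 3 and 5 lay at the top of the PTC range and the other 3 below it. The difference of Hspa5 was -0.10 (95% interval -0.28 to 0.09, adjusted p = 0.478). It was -0.06 without ATC tumour 4 and -0.18 after another quantile normalization, and did not pass in either. Hsp90b1, the ER HSP90 called GRP94, had -0.15 (adjusted p = 0.171). It passed as lower after another quantile normalization (-0.22, adjusted p = 0.0301) and without both ATC tumour 5 and PTC tumour 5 (-0.21, adjusted p = 0.0448). The lectin chaperone Canx had -0.02 (95% interval -0.14 to 0.10). Hyou1, a nucleotide exchange factor for BiP, spread from 7.95 to 8.90 in ATC and from 8.39 to 8.78 in PTC, with a difference of -0.23 (adjusted p = 0.397). ATC tumours 1 and 4 lay well below its PTC range, ATC tumour 2 (8.389) just below the lowest PTC value (8.391) and ATC tumour 5 above it. The difference of Hyou1 was -0.36 without ATC tumour 5 and -0.12 without ATC tumour 1, neither past the threshold.

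The remaining genes of this group are a sensor, secreted folding factors and degradation factors. Atf6, the sensor itself, ran from 9.71 to 9.94 in ATC and from 9.54 to 9.78 in PTC, a difference of 0.20 (95% interval 0.04 to 0.36, adjusted p = 0.0803). It was the only gene of the group other than Creld2 with a positive estimate. Manf, a secreted ER stress protein, had -0.22 (adjusted p = 0.112), and passed without ATC tumour 5 (-0.28, adjusted p = 0.0348). Sdf2l1, which works with BiP co-chaperones, had -0.16, and Creld2, an ER stress-induced disulfide isomerase-like protein, had 0.03. Of the degradation factors, Sel1l, the scaffold of the ligase encoded by Syvn1, had -0.23 (adjusted p = 0.0914). Syvn1 had -0.04 and Herpud1, an ER membrane protein of the same machinery, had -0.24 (adjusted p = 0.286).

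In the PERK and ATF4 branch, 0 of 5 genes passed, at an adjusted p or at an unadjusted p under 0.05. Of all genes 21.2% and 32.7% did so in turn. Of the 5 estimates 4 were positive, with a median of 0.31. Eif2ak3, which encodes PERK, ran from 8.24 to 8.49 in ATC and from 8.37 to 8.63 in PTC, with a difference of -0.14 (adjusted p = 0.213). Atf4, the transcription factor of the branch, had 9.43, 9.16, 9.93, 9.02 and 9.34 in the ATC tumours, against 9.09, 8.99, 9.07, 9.13 and 9.06 in the PTC tumours. ATC tumour 3 was the highest of all, and ATC tumours 1, 2 and 5 also lay above the PTC range, while ATC tumour 4 lay within it. The difference of Atf4 was 0.31 (adjusted p = 0.157).

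Of the 3 genes of the branch that are known targets of ATF4 or CHOP, Ddit3 and Chac1 had their highest values in the same tumour and Trib3 did not. Ddit3, which encodes the transcription factor CHOP, had 8.67, 8.37, 9.14, 8.28 and 8.45 in the ATC tumours, against 8.17, 8.35, 8.25, 8.45 and 8.09 in the PTC tumours, a difference of 0.32 (SE 0.15, 95% interval -0.01 to 0.65, adjusted p = 0.164). Chac1, an enzyme that degrades glutathione, had 7.46, 7.74, 8.63, 7.29 and 8.08 in the ATC tumours, against 7.38, 7.59, 7.51, 7.55 and 7.52 in the PTC tumours, a difference of 0.33 (SE 0.21, 95% interval -0.13 to 0.79, adjusted p = 0.31). ATC tumour 3 led both, and the PTC values of Chac1 lay within a narrow band inside the ATC range. Trib3, a pseudokinase induced by CHOP, had 0.03 and was highest in PTC tumour 5 (7.29). Without ATC tumour 3 the estimates were 0.17 for Atf4, 0.18 for Ddit3 and 0.13 for Chac1. The SD was larger in ATC for 5 of 5 genes of the branch (median 0.35 in ATC and 0.095 in PTC), as for 68.6% of all genes. It was nearly equal for Eif2ak3 (0.097 in ATC and 0.095 in PTC) and Trib3 (0.22 and 0.20). The wider spread was in Atf4 (0.35 and 0.051), Ddit3 (0.35 and 0.14) and Chac1 (0.53 and 0.080), the genes led by ATC tumour 3.

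The 7 secretion genes were mixed: 1 was higher in ATC (Ssr3), 0 were lower, and the median difference was 0.0033. That is 14.3% called, where 21.2% of all genes were. Ssr3, a subunit of the translocon-associated protein complex that helps nascent chains enter the ER, had 11.88, 11.91, 12.17, 12.01 and 11.99 in the ATC tumours, against 11.67, 11.54, 11.54, 11.64 and 11.51 in the PTC tumours (probe set 10498519). The lowest ATC value was higher than the highest PTC value. The difference of Ssr3 was 0.41 (SE 0.07, 95% interval 0.25 to 0.57, 1.33-fold higher, adjusted p = 0.00235), and it passed in every fit without a single tumour (0.37 to 0.44). Ssr1, another subunit of that complex, had -0.15 (95% interval -0.38 to 0.08, adjusted p = 0.357), so the subunits did not share the sign of the estimate.

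The other secretion genes did not pass. Sec61a1 and Sec61b, which encode subunits of the channel through which chains enter the ER, had 0.0033 and -0.10, and Spcs2, a signal peptidase subunit, had 0.12. Sec24d, a cargo-binding coat protein of vesicles that leave the ER, ran from 9.08 to 9.75 in ATC and from 8.99 to 9.20 in PTC. Its difference was 0.29 (adjusted p = 0.102), and without ATC tumour 1, its lowest ATC value, it passed at 0.37 (adjusted p = 0.0354). Creb3l1, a membrane-bound transcription factor of secretory cells, had 7.31, 7.46, 7.37, 7.87 and 8.62 in the ATC tumours, against 8.63, 7.77, 7.73, 8.03 and 8.18 in the PTC tumours. ATC tumours 1, 2 and 3 lay below the PTC range and ATC tumour 5 near its top. The difference of Creb3l1 was -0.34 (SE 0.25, 95% interval -0.89 to 0.21, adjusted p = 0.397). It was -0.56 (adjusted p = 0.060) without ATC tumour 5 and -0.20 without PTC tumour 1.

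The ATC tumours differed from one another by branch. For each gene the mean over the 10 tumours was subtracted, and these deviations were averaged over a branch. ATC tumour 3 stood at 0.50 in the PERK and ATF4 branch, where the other 9 tumours lay between -0.15 and 0.03. ATC tumours 1 and 4 stood lowest in the ATF6 and chaperone group, at -0.21 and -0.22, and were the lowest ATC tumour for 5 and 6 of its 15 genes. ATC tumour 5 stood at 0.06 there, inside the PTC range of 0.02 to 0.17, and was the highest ATC tumour for 10 of the 15. In the IRE1 and XBP1 branch the ATC tumours lay between -0.18 and -0.02 and the PTC tumours between -0.005 and 0.18, with ATC tumour 3 lowest. In the secretion group ATC tumour 1 was the lowest ATC tumour for 6 of 7 genes. ATC tumour 3, highest in the PERK and ATF4 mean, was thus lowest in the IRE1 and XBP1 mean, but ATC tumour 4 was close at -0.17. ATC tumour 4 was also the lowest ATC tumour in the PERK and ATF4 mean (-0.14), so these means did not run in opposite order across the tumours.

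**Figure D3:**
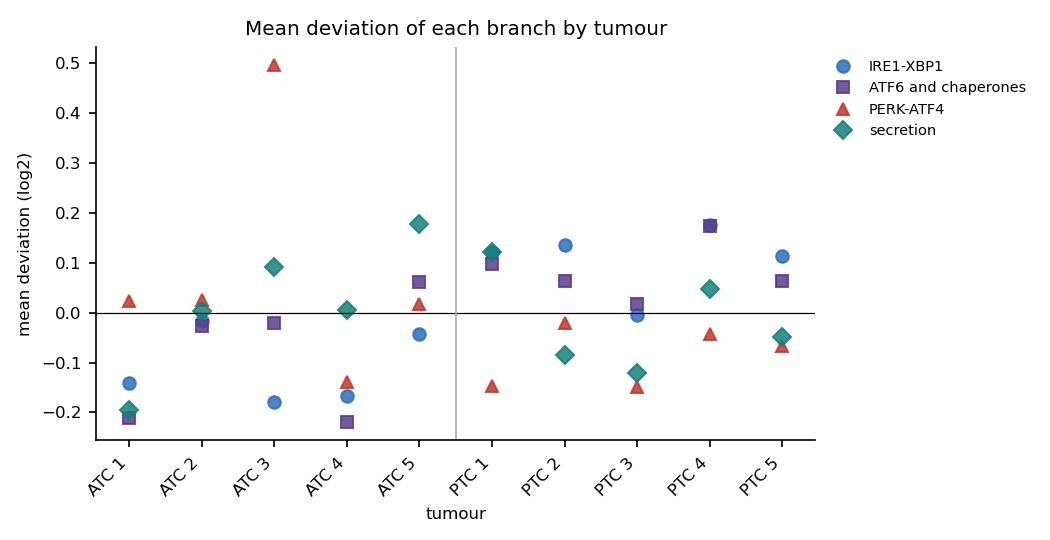
Mean deviation of each branch (y axis, log2 units, each gene measured from its own mean over 10 tumours) in each ATC tumour (left of the line) and each PTC tumour (right). The red triangle of ATC tumour 3 at 0.50 is the highest point, and the purple squares of ATC tumours 1 and 4 are the lowest of the chaperone group.

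**Figure D4:**
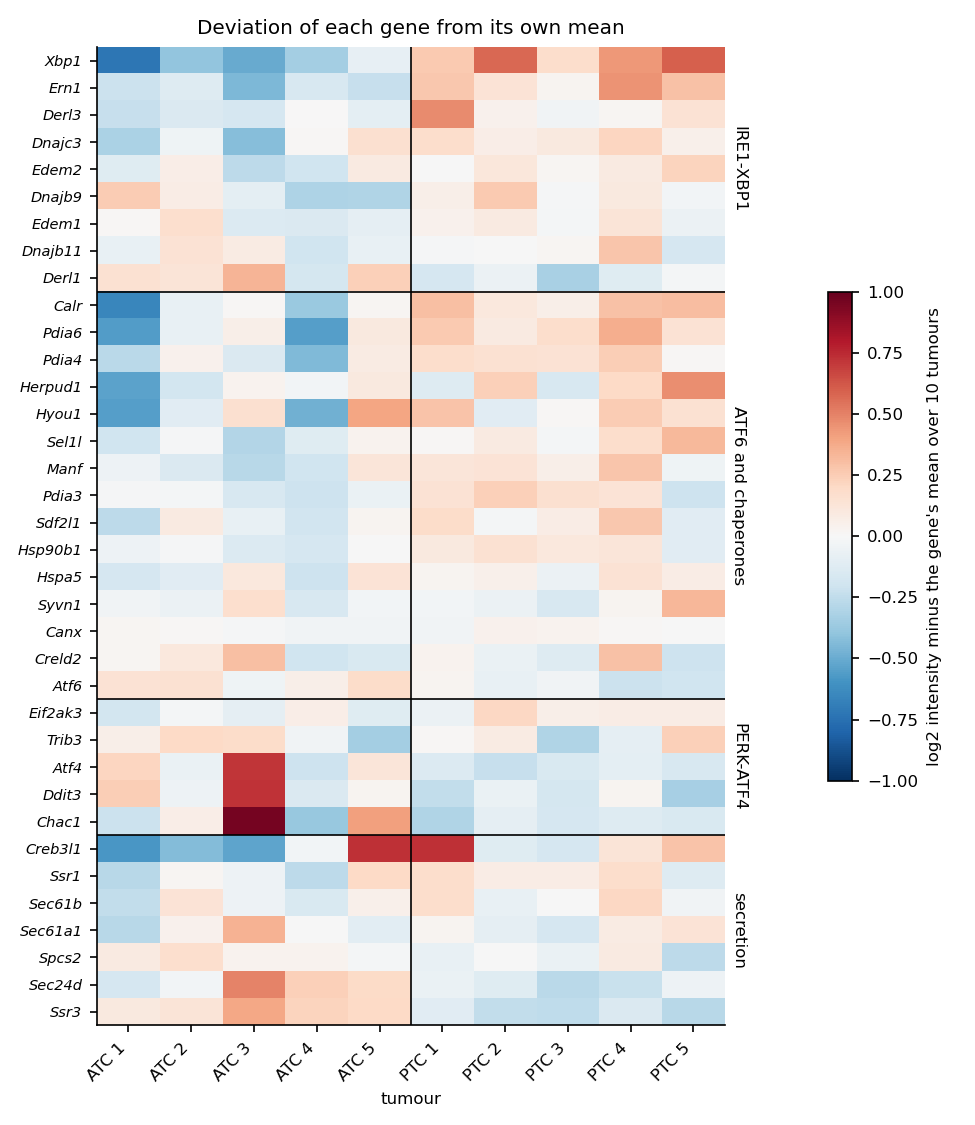
Deviation of the 36 genes (down the page, by branch) from their own mean in the 5 ATC tumours (left) and the 5 PTC tumours (right), with red above and blue below the mean on a log2 scale. Xbp1 and Ern1 are blue in all ATC tumours, and Atf4, Ddit3 and Chac1 are red in ATC tumour 3.

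Epithelial and macrophage markers differed most between the tumour types, with 75% and 90.9% called, where 21.2% of all genes were. The shares were nearer that of all genes for secretory epithelium (28.6%), thyrocyte (30%), plasma cell and B cell (33.3%), endothelial (33.3%) and fibroblast (40%) markers. In ATC, 6 of 8 epithelial markers were lower, Epcam (-2.73) and Cdh1 (-2.43) among them, and the mean level of the list was 8.16 to 9.77 in ATC and 10.51 to 10.71 in PTC. Of the 11 macrophage markers 10 were higher, Csf1r (1.35) among them, with 10.46 to 11.17 in ATC and 9.23 to 9.75 in PTC. Of the 9 plasma cell and B cell markers, cells known for abundant XBP1, 3 were lower, with 6.74 to 7.29 in ATC and 7.25 to 7.84 in PTC, and Jchain differed by -2.22 while Cd79a, at -0.22, did not pass. Of the 10 thyrocyte markers 3 were lower, with 6.65 to 8.05 in ATC and 7.88 to 8.89 in PTC, and neither Tg (-2.76, adjusted p = 0.0583) nor Pax8 (-1.01) passed. Of the 10 fibroblast markers 4 were lower (9.10 to 10.03 in ATC and 9.80 to 9.99 in PTC; Col1a1 at -0.20 and Pdgfra at 1.17 did not pass), as were 2 of 6 endothelial and 2 of 7 secretory epithelium markers. Parathyroid markers, present in some tumours of both groups, had 5.98 to 9.44 in ATC and 6.17 to 10.48 in PTC with 0 of 3 called (Pth -2.83), and 0 of 7 skeletal muscle markers were called.

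The part of these cells in the results for Xbp1, Ern1, Calr and Ssr3 was not tested. ATC tumour 2 kept the most epithelial (9.77) and thyrocyte (8.05) signal of its group. Its values for Xbp1 (9.43), Calr (11.45) and Ssr3 (11.91) lay within the range of the other ATC tumours, and that for Ern1 (8.45) at their top. A single tumour does not test the part of these cells. With the mean of the plasma cell and B cell markers as a covariate, the difference of Xbp1 was -0.82 and stayed past the threshold (adjusted p = 0.0475). In that fit Ern1 had -0.54 (adjusted p = 0.065), Ssr3 had 0.42 (adjusted p = 0.0695) and Calr had -0.40 (adjusted p = 0.326). Of all genes 4.58% were called, against 21.2% without the covariate. The marker mean itself nearly separated the groups (6.74 to 7.29 in ATC, 7.25 to 7.84 in PTC). The fit therefore cannot tell these cells from tumour type. Of the arrays, ATC tumour 5 had the widest distribution and the lowest array weight (0.375). It also had the highest macrophage mean of the ATC tumours (11.17) and a fibroblast mean of 10.03, against 9.42 or less in the others. Without ATC tumour 5, 7 of the 36 genes were lower in ATC in place of 3, with Dnajc3, Pdia4, Pdia6 and Manf added. The part of array quality or cell content in this was not tested.

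Beyond the 36, genes of the same pathways were taken from 6 lists of other ER and secretory genes, of which 103 of 109 were measured. In ATC, 11 were higher and 10 lower (20.4% of the 103), close to the 21.2% of all genes, with a median difference of 0.02. Among 23 folding and disulfide genes, 3 were higher and 4 lower. Ero1b, an oxidase that supplies disulfide bonds, had 8.01, 8.80, 8.13, 8.40 and 8.52 in the ATC tumours, against 9.81, 9.49, 9.42, 10.03 and 9.42 in the PTC tumours. All its ATC values lay below all its PTC values, and at -1.26 (adjusted p = 0.000488) it differed more than Xbp1. Pdia5, a disulfide isomerase (-0.51), Cnpy2 (-0.40) and Sil1, an exchange factor for BiP (-0.39), were also lower. Higher were Prdx4, an ER peroxiredoxin (0.56), Fkbp7, a prolyl isomerase (0.39), and Serp1 (0.24).

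Of 15 genes of the stress-activated ATF4 programme, 1 was higher and 2 were lower in ATC. Asns, the asparagine synthetase gene and a known ATF4 target, had 10.52, 10.84, 11.75, 9.93 and 9.70 in the ATC tumours, against 9.32, 8.92, 9.01, 9.15 and 9.04 in the PTC tumours. The groups did not overlap, and ATC tumour 3 was highest, as for Atf4, Ddit3 and Chac1. The difference of Asns was 1.46 (adjusted p = 0.00708), and 1.16 without ATC tumour 3. Nupr1, a stress-induced nuclear protein (-0.68), and Ddit4, an inhibitor of mTORC1 (-0.46), were lower.

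Of 9 further sensors and transcription factors, 0 passed, with 2 at an unadjusted p under 0.05, and Bhlha15, which drives secretory cell maturation, had -0.38 (adjusted p = 0.0757). Of 15 genes of ER-associated degradation 2 were higher, Ufd1 (0.32), a cofactor of the extraction enzyme VCP, and the ubiquitin ligase Rnf139 (0.24), and 0 were lower. Of 23 translocation and glycosylation genes 3 were higher, namely Srp14 (0.54), a signal recognition particle subunit, Ssr2 (0.43) and Sec62 (0.25). Lower were the translocon-associated Tram2 (-0.59) and Tram1 (-0.24) and the oligosaccharyltransferase Stt3b (-0.28). Ssr2, like Ssr3, encodes a subunit of the translocon-associated protein complex, and Ssr4, the remaining one, had -0.10 (adjusted p = 0.518). Of 18 genes of vesicle export and retrieval, 2 were higher and 1 was lower: the coat protein Sec23a had 9.747 or more in every ATC tumour, against 9.16 to 9.35 in the PTC tumours. The groups of Sec23a were well apart, at 0.60 (adjusted p = 0.000288), and the GTPase Sar1a had 0.29 and the cargo receptor Tmed10 -0.28.

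Several of these calls lay near the threshold and ended when 1 tumour was left out, mostly with a like difference. The calls of Rnf139, Fkbp7, Sec62, Tmed10, Stt3b, Tram1 and Ddit4 each ended in 5 to 9 of the 10 fits that left out 1 tumour, with differences of 0.19 to 0.24, 0.34 to 0.42, 0.21 to 0.28, -0.29 to -0.23, -0.28 to -0.23, -0.24 to -0.22 and -0.44 to -0.38 in that order. That of Nupr1 ended without ATC tumour 1, PTC tumour 2 or PTC tumour 4 (-0.64 to -0.60, adjusted p = 0.0563 to 0.0596). That of Srp14 ended without ATC tumour 1 or ATC tumour 2 (0.49 to 0.52, adjusted p = 0.0534 to 0.0650), and that of Prdx4 without PTC tumour 4 (0.53, adjusted p = 0.0505). The call of Serp1, also near the threshold (adjusted p = 0.0430), was not followed through these fits.

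**Figure D5:**
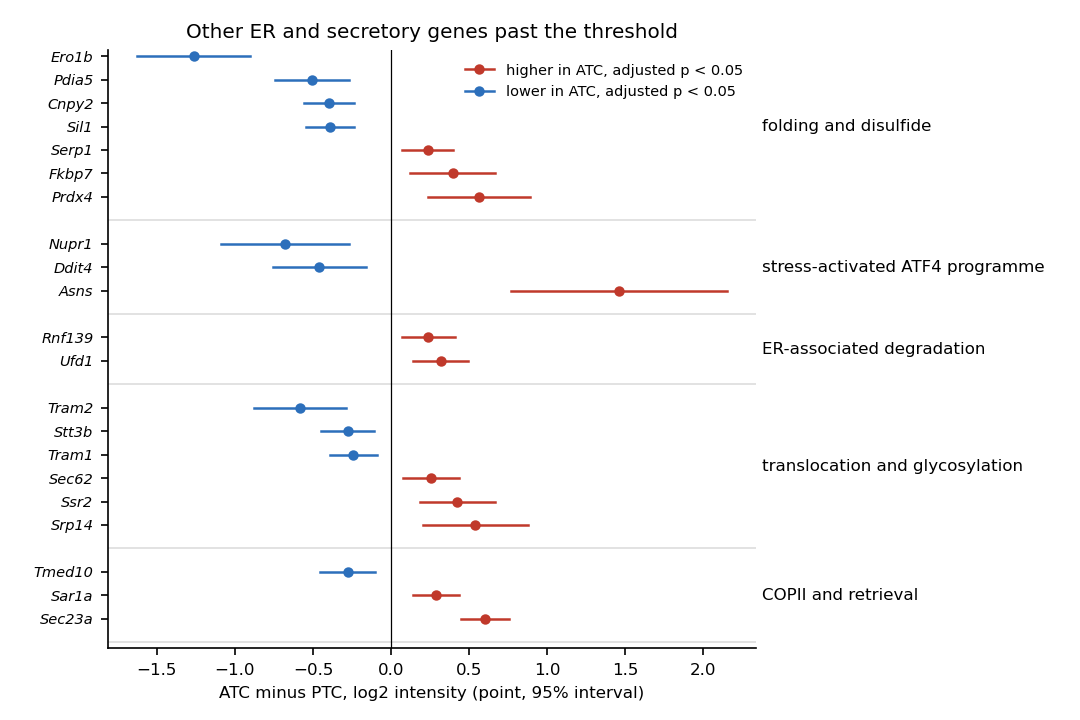
Difference, ATC minus PTC in log2 intensity with its 95% interval (x axis), of the 21 other ER and secretory genes that passed the threshold, by list. Red points (11 genes) are higher in ATC and blue points (10 genes) lower, with Asns at 1.46 and Ero1b at -1.26 as the extremes.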

How the data were processed

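RNA of 10 tumours was labelled with biotin and hybridised to whole-transcript arrays. This is per the labels' protocols. Deposited log2 intensity values of 35556 probe sets were used as given. Affymetrix Power Tools and limma are named in the submitters' processing notes, and background correction, normalization and build were not given in the sources used here. That the authors deposited values on a log2 scale was read from their range, 2.79 to 14.15. Detection is unknown, and a dim gene's difference may be understated. Probe sets with 1 symbol (21789) gave 19938 genes, each by its probe set of highest mean. Those with several (1621) or no symbol (12146) were not used to name a gene. Dnajc3 had several probe sets with identical values, and Pdia4 and Sec61b also had more than 1.

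ATC minus PTC was fitted to all genes by lmFit followed by eBayes (limma 3.58.1, R 4.3.3), with Benjamini-Hochberg adjustment over all 19938 genes at 0.05 and 95% intervals; the procedure was tested on simulated data. The 36 genes, their branches, the other lists and the markers were chosen with earlier results of these data known. All 36 were named; values in every tumour were given for genes past the threshold and the 8 largest differences, and of the other lists the genes past the threshold were named, at most 6 a list. Values in every tumour of Atf4, Hspa5, Ero1b and Asns, and Serp1 and the other list genes that did not pass, were added after their values were seen. No filter was set on dim genes.

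Alternatives were the mean of or all probe sets of a gene, 2 filters on dim genes, quantile normalization, median centring, array weights, robust estimation with a variance trend, a replicate block, covariates for plasma cell, parathyroid and muscle markers, and each tumour left out. The fit without ATC replicate 5 and PTC replicate 5 was chosen after seeing the data. Tumours of the same number did not deviate together (r of -0.086 to 0.12 across genes). Some genes of these lists are not analysed here. Motifs were searched with Python 3.11.15 in RefSeq promoter windows of GRCm38.p6; figures used matplotlib 3.10.9, pandas 2.3.3 and numpy 2.4.6.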

Additional observations from a re-analysis of the deposited data

Results flagged for a closer look

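In 72 groups of 5 tumours (36 genes in each tumour type), 2 groups held a value apart from the rest by Dixon's criterion, and chance alone marks about 1 group in 20. Both were in PTC replicate 5. Hsp90b1 had 12.56 in that tumour and 12.77 to 12.82 in the other PTC tumours. Pdia3 had 11.61 there and 11.95 to 12.06 in the others. Without PTC replicate 5 Pdia3 was lower in ATC (-0.26, adjusted p = 0.0266), as given above.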

How the results depend on the processing

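Xbp1 was lower in ATC in 23 of 23 alternatives, Ern1 was lower and Ssr3 higher in 22 of 23 each, and Calr was lower in 11 of 23. The median difference of the 36 genes stayed between -0.18 and -0.09. Of the 36 genes, 2 were higher with median centring and with array weights, and 0 with the plasma cell covariate. Lower were 5 when genes under the median were left out, 9 after another quantile normalization, 7 with array weights, 1 with the plasma cell covariate and 7 without ATC replicate 5 and PTC replicate 5. The 6 added by quantile normalization were Hsp90b1, Pdia3, Pdia4, Pdia6, Manf and Sel1l, and median centring added Atf6 as higher (0.24, adjusted p = 0.034). Leaving out each tumour in turn gave 1 to 2 higher and 2 to 7 lower. Derl1, Dnajc3, Pdia3, Manf and Sec24d each passed in only 1 of these 10 fits. In each case the tumour left out was the one of its group nearest the other group, which widens the gap by itself. Of the other ER genes, 7 were higher with the replicate block, 2 with the plasma cell covariate, 6 with the parathyroid covariate, 7 without ATC replicate 5 and PTC replicate 5, and 6 to 12 without single tumours. Lower were 2 with the plasma cell covariate, 6 with the parathyroid covariate and 5 to 12 without single tumours. With the replicate number as a block 18.9% of all genes were called, and of the 36 genes Xbp1, Ern1 and Ssr3 passed while Calr did not (adjusted p = 0.0766). Calr also missed the threshold with median centring (adjusted p = 0.059), the muscle covariate (0.0518) and the parathyroid covariate (0.103). The cause was not tested. Signs turned only in genes that did not pass: with the plasma cell covariate Dnajb9 had 0.028, Dnajb11 0.063, Edem1 0.033 and Canx 0.0097, with the parathyroid covariate Dnajb11 had 0.041 and Sec61a1 -0.0067, with median centring Canx had 0.020, after quantile normalization Creld2 had -0.032 and Sec61a1 -0.077, and without ATC replicate 5 and PTC replicate 5 Syvn1 had 0.034. Without single tumours Dnajb11 ran from -0.094 to 0.017, Trib3 from -0.047 to 0.11 (0.18 without ATC replicate 5 and PTC replicate 5), Creld2 from -0.045 to 0.10, Syvn1 from -0.092 to 0.032 and Sec61a1 from -0.084 to 0.072. The number of tumours and the unknown signal over background limit the precision of small differences.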
